A study of Homo sapiens with 10 samples.

Results

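The genes described here encode the voltage-gated sodium channels, the voltage-gated calcium channels and the potassium channels, with their auxiliary subunits. Members were all probe sets whose platform gene symbol starts with KCN, CACNA, CACNB or CACNG, or is SCN followed by digits and A or B. This gave 123 probe sets for 123 genes, of 21448 gene probe sets tested. All 123 gene identifiers matched RefSeq.

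Values came from whole-transcript arrays of 2 human neuroblastoma cell lines, SK-N-AS and SK-N-FI, 10 arrays in all. Treated cells were kept in BG-P1600-TAT at 30 µM for 48 h, and controls in PBS for as long. BG-P1600-TAT is a PEG-linked conjugate that the series title presents as directed at the norepinephrine transporter and integrin αvβ3. There were 3 treated SK-N-AS arrays (numbered 28, 29 and 30), 3 control SK-N-AS arrays (25, 26 and 27), 2 treated SK-N-FI arrays and 2 control SK-N-FI arrays. The labels call SK-N-AS a primary cell line and give it as a gift, and SK-N-FI as bought from a cell bank. Both were grown in the same serum-containing medium. SK-N-AS titles write BG-P-TAT, read here as BG-P1600-TAT. Whether the SK-N-AS arrays are separate cultures is not stated in the labels, and the p-values there cover the spread among arrays, possibly technical.

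Sodium channels open on depolarisation and drive the upstroke of the action potential. Calcium channels turn depolarisation into calcium entry, and potassium channels bring the membrane back to rest or hold it there. Each pore-forming subunit works with auxiliary subunits that set its gating and its delivery to the surface. Neuroblastoma arises from the sympathetic lineage of the neural crest, and its cells can carry channels of sympathetic neurons.

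Levels are log2 signals, and signals of different probe sets are not comparable with each other. Background was set per array at the 95th percentile of its 612 negative control probe sets. This threshold lay between 6.75 and 7.23 in SK-N-AS and between 7.44 and 8.26 in SK-N-FI on the deposited scale. Of all gene probe sets, 32.9% to 39.7% exceeded it on an SK-N-AS array and 38.3% to 44.3% on an SK-N-FI array. The deposited medians of gene probe sets differed between the lines, 5.75 to 5.81 in SK-N-AS against 6.61 to 6.62 in SK-N-FI. The lines were therefore compared on values quantile-normalized over all 10 arrays, called the quantile scale below, and treatment was compared within each line on the deposited values. On the quantile scale the background threshold lay between 7.23 and 7.96 in SK-N-AS and between 6.73 and 7.38 in SK-N-FI. It thus tended to be higher in SK-N-AS there, the reverse of the deposited scale. The line cannot be told apart from the array run or from the apparently separate normalization of the lines. In such bulk RNA, fewer cells with a transcript and less RNA per cell cannot be told apart. Of the marker genes looked at, PHOX2A, DBH and ISL1, marks of noradrenergic neuroblastoma, were higher in SK-N-FI, and FOSL1, FOSL2 and FN1, marks of mesenchymal neuroblastoma, were higher in SK-N-AS. The mesenchymal marker CD44 was higher in SK-N-FI, while PRRX1, VIM and YAP1 were called higher in SK-N-AS. The noradrenergic markers HAND2, GATA3 and TH and the mesenchymal marker SNAI2 were not called different between the lines. Of 6 noradrenergic markers measured, 3 were above background on every SK-N-AS array and 5 on every SK-N-FI array, and of 8 mesenchymal markers 6 and 3. Their part in the channel gene differences was not tested. Of 6 markers of other cell types, 5 were above background on no array, and PTPRC was above it on 5 of 6 SK-N-AS arrays and 0 SK-N-FI arrays.

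Most channel genes lay in the background. Of the 123 members, 90 (73.2%) exceeded the threshold on no array, against 50.2% of all gene probe sets. Another 8 members (6.5%) exceeded it on every SK-N-AS array, against 30.9% of all probe sets. In SK-N-FI, 16 members (13%) did so, against 38.1%. Both lines shared 5 of these genes. They were SCN9A, a sodium channel pore known from pain-sensing and sympathetic neurons, CACNA2D1 and CACNA2D3, calcium channel alpha2delta subunits, CACNB3, a calcium channel beta subunit, and KCNH2, the pore of the rapid delayed rectifier of the heart. KCNJ8, KCNK1 and KCNK2 were above background throughout SK-N-AS and on no SK-N-FI array, 2.44% of the members against 2.02% of all probe sets. Conversely, 11 members did so on every SK-N-FI array and no SK-N-AS array, 8.94% of the members against 4.1% of all probe sets. The remaining 14 exceeded it on some arrays only.

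**Figure D1:**
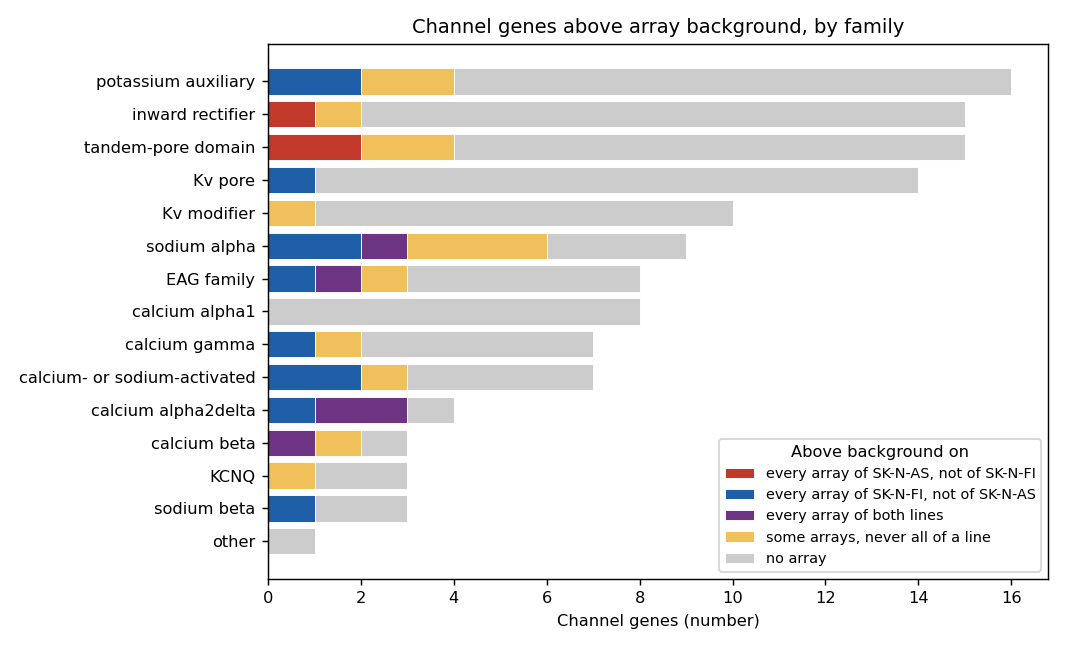
Members of each channel family by where they exceeded the negative control threshold. Horizontal bars count genes, with families down the page and colours for the lines concerned. Calcium alpha1 genes lie wholly in the class above background on no array.

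Members above background were also counted by family, with few genes in each. Over all members, 6.5% were above background on every SK-N-AS array, 13% on every SK-N-FI array and 73.2% on no array. None of the 8 calcium alpha1 pore genes exceeded the threshold on any array, whereas 3 of 4 alpha2delta genes did on every SK-N-FI array and 2 of 4 on every SK-N-AS array. Of 9 sodium alpha genes, 1 was above background on every SK-N-AS array and 3 on every SK-N-FI array. Of 15 inward rectifiers 1, and of 15 tandem-pore potassium channels 2, were above background on every SK-N-AS array, and none of either family was on every SK-N-FI array. Of 14 voltage-gated potassium pores (KCNA to KCND), 13 were above background on no array. The modifier subunits had 9 of 10 in that class and the KCNQ genes 2 of 3.

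The comparison of the lines asked which channel genes separate SK-N-AS from SK-N-FI. In treated arrays, limma called 21 members (17.1%) higher in SK-N-AS, against 23.4% of all probe sets, and 38 (30.9%) higher in SK-N-FI, against 22.2%. In control arrays 19 members (15.4%) were higher in SK-N-AS, against 23.9%, and 43 (35%) were higher in SK-N-FI, against 22.8%. The balance depended on the scaling. With each array centred on its own median, 49 members (39.8%) were higher in SK-N-AS in treated arrays, against 34.1% of all probe sets, and 35 (28.5%) in SK-N-FI, against 27.5%. In control arrays 52 members (42.3%) were then higher in SK-N-AS, against 34.9%, and 32 (26%) in SK-N-FI, against 27.8%. The median difference over all probe sets moved towards SK-N-AS under that centring, to 0.22 in treated and 0.23 in control arrays. The share of all probe sets called rose in both directions. Many calls concern signals in the background. The filter on dim probe sets left 28 members and 10253 probe sets. In treated arrays 3 of these members (10.7%) were called higher in SK-N-AS, against 30% of the probe sets left, and 19 (67.9%) in SK-N-FI, against 31.5%. In control arrays the numbers were 3 (10.7%), against 30.5%, and 21 (75%), against 32.4%. A member could pass that filter through its brighter line alone, so these shares are a description. The median member difference was -0.18 in treated and -0.092 in control arrays, SK-N-AS minus SK-N-FI, against 0.022 and 0.028 over all probe sets.

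A stricter set required the same direction in treated and control arrays, a log2 difference of at least 1 in both, and a signal above background on every array of the higher line. It held 3 members higher in SK-N-AS (2.44%, against 8.65% of all probe sets) and 12 higher in SK-N-FI (9.76%, against 10.3%). For 14 of these 15 the lower line was below background on all its arrays. A lower bound of the fold is then given where it is above 1, the mean of the brighter line over the mean threshold of the dimmer line, and the fitted log2 differences of these 14 have no order of size.

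**Figure D2:**
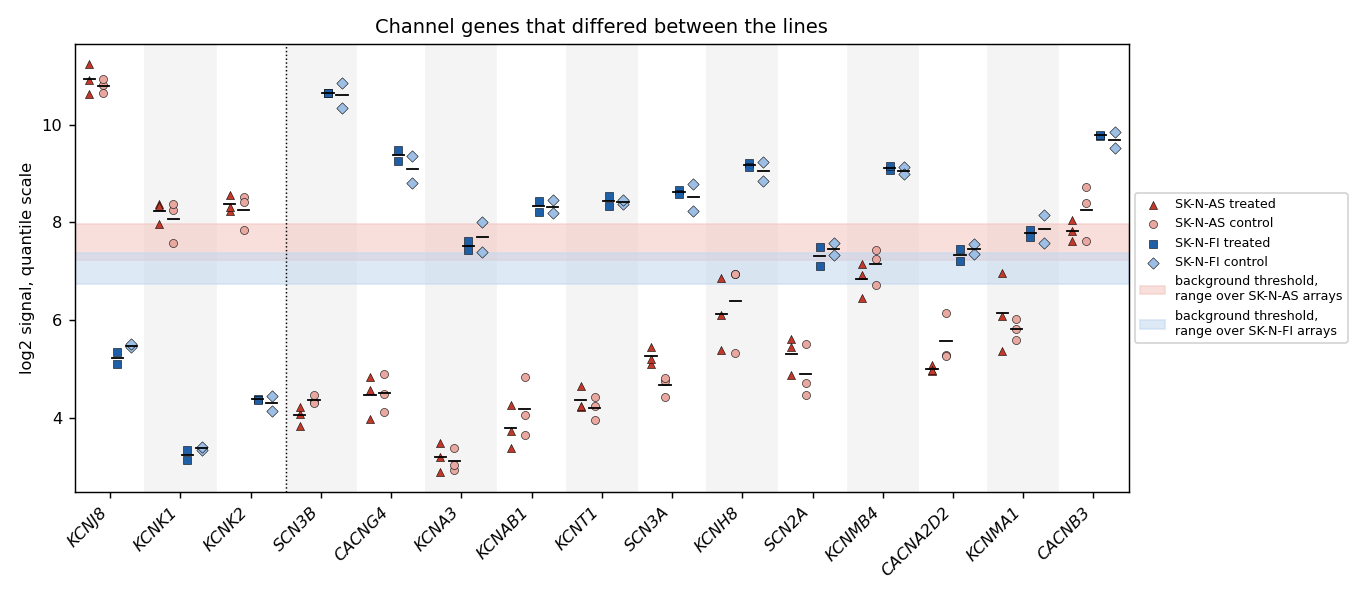
Log2 signal on the quantile scale of the 15 strict-set genes on each array, treated and control SK-N-AS left of treated and control SK-N-FI. Points are arrays, and the shaded bands span the negative control thresholds of each line's arrays. The SK-N-AS and SK-N-FI arrays do not overlap for any of the 15 genes, which the rule for the set makes likely.

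KCNJ8 encodes Kir6.1, an inward rectifier that forms ATP-sensitive potassium channels with a sulfonylurea receptor. On the quantile scale it had 11.24, 10.92 and 10.63 in treated and 10.65, 10.81 and 10.94 in control SK-N-AS arrays, against 5.09 and 5.34 in treated and 5.45 and 5.51 in control SK-N-FI arrays. Every SK-N-AS array was far above every SK-N-FI array. The log2 difference was 5.71 in treated arrays (95% interval 5.20 to 6.22, limma adjusted p = 5.4e-09) and 5.32 in control arrays (4.81 to 5.83, adjusted p = 9.22e-09). This was at least 13.8-fold in treated and at least 15.9-fold in control arrays. On the deposited scale the bounds were at least 5.30-fold and at least 6.29-fold.

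KCNK1 (TWIK-1) and KCNK2 (TREK-1) are tandem-pore channels that carry background potassium current. KCNK1 had 8.37, 8.34 and 7.97 in treated and 8.26, 7.59 and 8.38 in control SK-N-AS arrays, against 3.13 and 3.34 in treated and 3.35 and 3.40 in control SK-N-FI arrays. KCNK2 had 8.24, 8.32 and 8.57 in treated and 8.52, 8.41 and 7.85 in control SK-N-AS arrays, against 4.39 and 4.37 in treated and 4.45 and 4.14 in control SK-N-FI arrays. Neither gene overlapped between the lines, though KCNK1 on control array 26 (7.59) barely passed its threshold of 7.58. The KCNK1 difference was 4.99 in treated (adjusted p = 5.05e-08) and 4.70 in control arrays (adjusted p = 7.74e-08), at least 2.12-fold and at least 2.40-fold. The KCNK2 difference was 3.99 in treated (adjusted p = 1.76e-07) and 3.96 in control arrays (adjusted p = 1.77e-07), at least 2.34-fold and at least 2.73-fold. On deposited values KCNK1 kept its call in both comparisons, but its bound fell below 1 in both, as did that of KCNK2 in treated arrays.

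The promoters of KCNJ8 and KCNK1, higher in SK-N-AS, are shown beside those of KCNT1 and KCNH8, potassium channel genes higher in SK-N-FI and described below. Sequences are RefSeq's, GRCh38.p14, from 250 bases before to 50 after a start, in the direction of transcription. Capitals mark the GC box GGGCGG on either strand, overlapping matches included. KCNJ8 lies at chr12:21774657-21774956 (minus strand), KCNK1 at chr1:233613856-233614155 (plus), KCNT1 at chr9:135701935-135702234 (plus) and KCNH8 at chr3:19148260-19148559 (plus).
KCNJ8: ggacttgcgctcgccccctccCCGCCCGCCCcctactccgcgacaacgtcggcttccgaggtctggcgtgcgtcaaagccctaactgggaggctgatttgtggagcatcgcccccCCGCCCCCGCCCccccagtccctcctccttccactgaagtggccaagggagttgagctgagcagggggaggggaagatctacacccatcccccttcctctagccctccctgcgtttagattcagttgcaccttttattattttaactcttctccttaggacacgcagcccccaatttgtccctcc
KCNK1: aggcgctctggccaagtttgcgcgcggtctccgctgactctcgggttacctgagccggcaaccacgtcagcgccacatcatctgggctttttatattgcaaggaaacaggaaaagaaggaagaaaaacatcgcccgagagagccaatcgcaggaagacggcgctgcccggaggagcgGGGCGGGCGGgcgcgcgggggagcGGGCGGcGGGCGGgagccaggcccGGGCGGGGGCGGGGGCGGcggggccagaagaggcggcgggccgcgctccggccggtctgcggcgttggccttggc
KCNT1: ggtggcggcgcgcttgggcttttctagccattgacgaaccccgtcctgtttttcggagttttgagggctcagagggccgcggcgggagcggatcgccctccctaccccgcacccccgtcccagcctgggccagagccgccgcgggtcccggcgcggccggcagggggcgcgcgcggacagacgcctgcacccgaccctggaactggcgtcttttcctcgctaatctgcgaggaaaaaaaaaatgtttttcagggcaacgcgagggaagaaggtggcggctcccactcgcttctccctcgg
KCNH8: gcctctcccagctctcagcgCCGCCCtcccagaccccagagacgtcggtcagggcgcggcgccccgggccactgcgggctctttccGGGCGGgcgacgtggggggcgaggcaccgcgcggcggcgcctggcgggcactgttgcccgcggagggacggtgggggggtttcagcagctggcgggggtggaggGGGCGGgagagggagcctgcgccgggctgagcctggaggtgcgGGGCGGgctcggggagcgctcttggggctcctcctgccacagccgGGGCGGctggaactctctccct

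KCNJ8 held 4 GC boxes, KCNK1 7, KCNT1 0 and KCNH8 5. CpG dinucleotides numbered 16 in KCNJ8, 38 in KCNK1, 34 in KCNT1 and 33 in KCNH8. A GC box was present in 45% of all 35116 RefSeq promoter windows and in 52.5% of 141 windows of 93 matched members. The element TGANTCA, read by AP-1 factors, was in none of the 4 printed windows, in 7.09% of the member windows and in 7.71% of all windows. These matches describe the letters only.

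SCN3B encodes the beta3 sodium channel subunit, which modulates gating and surface delivery of the pore. It was bright in SK-N-FI and in the background in SK-N-AS. On the quantile scale it had 3.83, 4.09 and 4.22 in treated and 4.33, 4.30 and 4.46 in control SK-N-AS arrays, against 10.65 and 10.64 in treated and 10.86 and 10.34 in control SK-N-FI arrays. No SK-N-AS array came near an SK-N-FI array. The log2 difference was -6.60 in treated (95% interval -7.10 to -6.10, limma adjusted p = 1.57e-09) and -6.24 in control arrays (-6.74 to -5.73, adjusted p = 2.41e-09). SK-N-AS was at least 9.10-fold lower in treated and at least 7.96-fold lower in control arrays on this scale, and at least 25.8-fold and 23.4-fold lower on deposited values. The other beta genes, SCN2B and SCN4B, exceeded the threshold on no array.

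Of the sodium pores, SCN9A was above background in both lines. On the quantile scale it had 10.06, 10.77 and 11.69 in treated and 9.46, 11.09 and 10.78 in control SK-N-AS arrays, against 11.37 and 11.96 in treated and 11.87 and 11.74 in control SK-N-FI arrays. SK-N-AS arrays spread widely, with array 28 lowest of the treated and array 25 lowest of the control ones, and treated arrays of the lines overlapped. The log2 difference was -0.83 in treated arrays, which did not pass (adjusted p = 0.203), and -1.37 in control arrays (adjusted p = 0.0426). The treated difference passed on deposited values (-2.28, adjusted p = 0.0025) and with each array centred on its median (-1.45, adjusted p = 0.0264). The control call was lost without SK-N-AS array 25 (-0.86, adjusted p = 0.121) or 27 (adjusted p = 0.0515) and without either SK-N-FI control array (adjusted p = 0.164 and 0.128), and narrowly without 3 of the treated arrays.

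SCN3A and SCN2A, neuronal sodium pores of the developing and mature brain, were above background on every SK-N-FI array and no SK-N-AS array. SCN3A had 5.11, 5.20 and 5.45 in treated and 4.42, 4.75 and 4.82 in control SK-N-AS arrays, against 8.67 and 8.58 in treated and 8.79 and 8.24 in control SK-N-FI arrays. SCN2A had 5.46, 4.87 and 5.61 in treated and 4.46, 5.52 and 4.71 in control SK-N-AS arrays, against 7.50 and 7.12 in treated and 7.33 and 7.58 in control SK-N-FI arrays. The SCN3A difference was -3.37 in treated (adjusted p = 5.27e-07) and -3.85 in control arrays (adjusted p = 1.7e-07). The SCN2A difference was -2.0 in treated (adjusted p = 0.000433) and -2.57 in control arrays (adjusted p = 6.32e-05). SK-N-AS was thus at least 2.24-fold and at least 1.87-fold lower for SCN3A, while SCN2A gave no bound above 1 on the quantile scale and at least 2.33-fold and 2.51-fold on deposited values.

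These genes adjoin each other on chromosome 2, in the RefSeq order SCN3A, SCN2A, CSRNP3, GALNT3, TTC21B, SCN1A, SCN9A and SCN7A, with 1 unmeasured locus between GALNT3 and TTC21B. SCN1A, a pore of inhibitory neurons, averaged 5.39 in treated and 5.33 in control SK-N-AS arrays, against 7.41 in treated and 7.92 in control SK-N-FI arrays, and was above background on 3 of 4 SK-N-FI arrays. SCN7A, a sodium-sensing channel-like protein chosen after its values were seen, averaged 3.23 and 3.39 in treated and control SK-N-AS arrays, against 7.09 and 7.37 in those of SK-N-FI. The SCN1A difference was -2.02 in treated (adjusted p = 0.00205) and -2.59 in control arrays (adjusted p = 0.000358), and that of SCN7A was -3.86 (adjusted p = 3.07e-07) and -3.98 (adjusted p = 2.22e-07). Every SCN gene of the run was called lower in SK-N-AS in control arrays on the quantile scale. In treated arrays the call for SCN9A depended on the scaling, as given above.

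The genes lying between them, looked at after these values were seen, did not all follow. CSRNP3, a transcription factor gene, averaged 5.76 in treated and 5.09 in control SK-N-AS arrays, against 9.10 in treated and 9.27 in control SK-N-FI arrays. TTC21B, a gene of ciliary transport, averaged 5.24 in treated and 4.89 in control SK-N-AS arrays, against 8.01 in treated and 7.83 in control SK-N-FI arrays. GALNT3, a glycosyltransferase gene, was above background on no array and differed by 1.23 in treated and 1.28 in control arrays, higher in SK-N-AS. Of the flanking genes COBLL1, SLC38A11, XIRP2 and B3GALT1, 0 exceeded the threshold on any SK-N-FI array. Elsewhere SCN10A, SCN11A and SCN4A exceeded it on no array, and SCN8A on 1 of 4 SK-N-FI arrays.

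**Figure D3:**
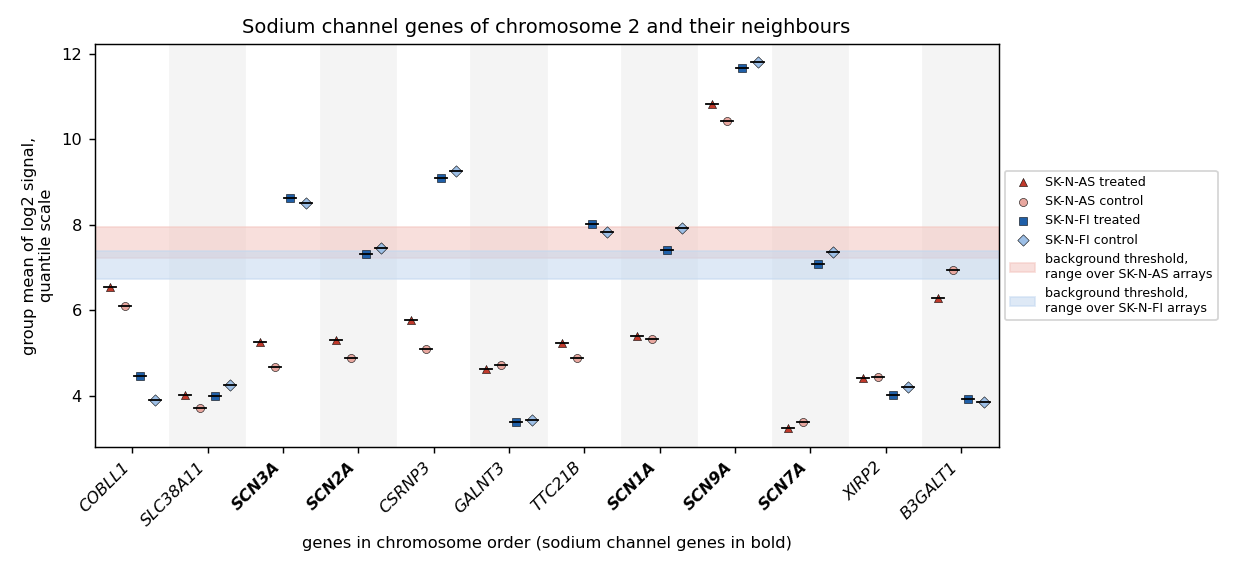
Group means of log2 signal on the quantile scale for the sodium channel genes of chromosome 2 and their neighbours in RefSeq order, 1 point per group and gene. SCN9A is bright in all 4 groups, while SCN3A, SCN2A, CSRNP3, TTC21B, SCN1A and SCN7A are higher in SK-N-FI.

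Among calcium channel genes, only auxiliary subunits were above background on any array, so line differences above it could concern no pore gene. Within the background, 3 of the 8 pore genes were called higher in SK-N-FI in control arrays, against 22.8% of all probe sets. In the same arrays 1 of the 8 was called higher in SK-N-AS, against 23.9%. So few genes show no lean to either line. CACNG4 encodes gamma4, a transmembrane protein that also partners AMPA receptors. It had 4.57, 3.98 and 4.82 in treated and 4.49, 4.90 and 4.11 in control SK-N-AS arrays, against 9.49 and 9.25 in treated and 8.81 and 9.36 in control SK-N-FI arrays. The difference was -4.91 in treated (adjusted p = 2.05e-07) and -4.58 in control arrays (adjusted p = 3.51e-07), at least 3.75-fold and at least 2.78-fold lower in SK-N-AS. Its neighbours in the family on chromosome 17, CACNG5 and CACNG1, exceeded the threshold on no array.

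CACNB3 was above background on all arrays of both lines, so both gave a signal to compare. On SK-N-AS control array 26 it (7.63) barely passed the threshold of 7.58. It had 7.83, 8.04 and 7.61 in treated and 8.72, 7.63 and 8.39 in control SK-N-AS arrays, against 9.76 and 9.80 in treated and 9.84 and 9.52 in control SK-N-FI arrays. The SK-N-AS values were lower without overlap. The difference was -1.95 in treated (95% interval -2.62 to -1.29, adjusted p = 0.000268) and -1.43 in control arrays (-2.10 to -0.77, adjusted p = 0.00223). CACNA2D2, an alpha2delta subunit, averaged 5.01 in treated and 5.57 in control SK-N-AS arrays, against 7.34 in treated and 7.46 in control SK-N-FI arrays, a difference of -2.33 (adjusted p = 3.44e-05) and -1.89 (adjusted p = 0.000176), with no bound above 1 on the quantile scale.

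CACNA2D1, the binding target of gabapentin, had 9.11, 10.49 and 11.16 in treated and 9.0, 10.92 and 10.34 in control SK-N-AS arrays, against 8.98 and 9.11 in treated and 9.34 and 9.49 in control SK-N-FI arrays. Arrays 28 and 25 were again the lowest of their groups, and control arrays of the lines overlapped. The difference was 1.21 in treated (95% interval -0.05 to 2.48, adjusted p = 0.109) and 0.67 in control arrays (-0.59 to 1.94, adjusted p = 0.367), neither past the threshold. Without array 28 the treated difference passed (1.77, adjusted p = 0.0146). On deposited values its sign turned, to -0.47 and -1.02. CACNA2D3 differed by -0.50 in treated (adjusted p = 0.191) and -0.91 in control arrays (adjusted p = 0.0243), a call lost without SK-N-AS control array 26 (adjusted p = 0.0788) or SK-N-FI control array 1 (adjusted p = 0.183). Its treated difference passed on deposited values (-2.18, adjusted p = 1.68e-05) and with median centring (-1.34, adjusted p = 0.00108). The pore genes of N-type and P/Q-type channels, CACNA1B and CACNA1A, stayed under the threshold on every array of both lines.

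**Figure D4:**
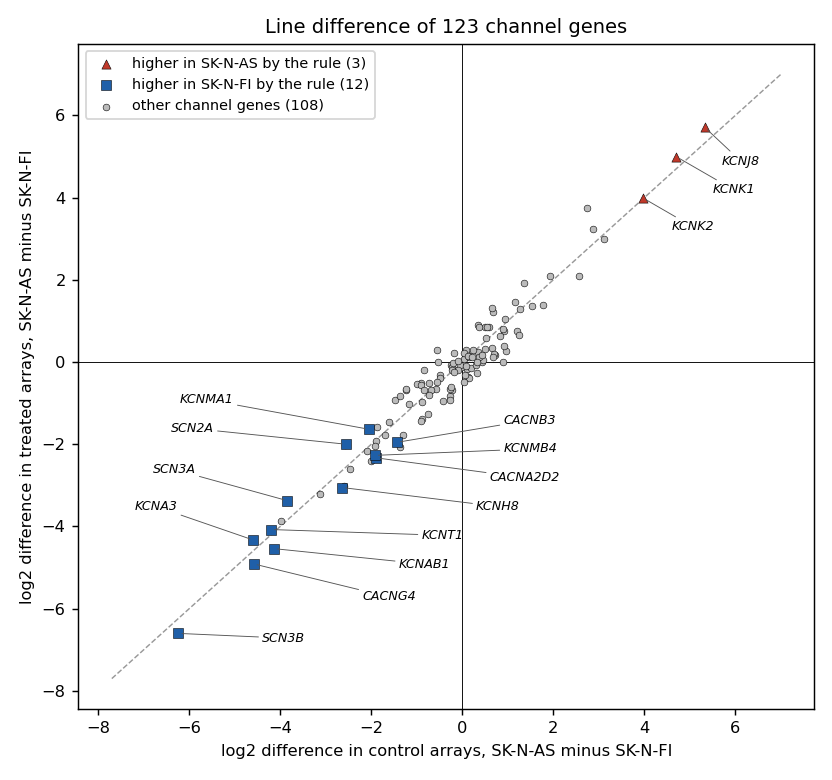
Log2 difference between the lines, SK-N-AS minus SK-N-FI on the quantile scale, for the 123 members, in treated arrays (vertical axis) against control arrays (horizontal axis). Each point is a gene, the 15 strict-set genes are named, and the dashed line marks equal differences. Differences of genes in the background of 1 line are against that line's floor and carry no exact size.

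Potassium channel genes of the strict set higher in SK-N-FI came from several families. KCNA3 encodes Kv1.3, a delayed rectifier known from T cells, and KCNAB1 a cytoplasmic beta subunit of such channels. KCNA3 had 3.19, 2.90 and 3.49 in treated and 2.93, 3.38 and 3.03 in control SK-N-AS arrays, against 7.43 and 7.62 in treated and 8.01 and 7.40 in control SK-N-FI arrays. Its difference was -4.33 in treated (adjusted p = 1.53e-07) and -4.59 in control arrays (adjusted p = 9.23e-08). KCNAB1 averaged 3.79 in treated and 4.18 in control SK-N-AS arrays, against 8.33 in treated and 8.32 in control SK-N-FI arrays, a difference of -4.54 (adjusted p = 9.15e-07) and -4.14 (adjusted p = 1.86e-06). The SK-N-FI signals of KCNA3 lay close to the SK-N-AS thresholds, so SK-N-AS was at least 1.04-fold lower in treated and at least 1.07-fold lower in control arrays. For KCNAB1 the bounds were 1.82-fold and 1.64-fold.

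KCNT1 encodes a sodium-activated potassium channel. It had 4.22, 4.65 and 4.24 in treated and 4.24, 3.96 and 4.42 in control SK-N-AS arrays, against 8.55 and 8.34 in treated and 8.38 and 8.45 in control SK-N-FI arrays. The arrays agreed closely within each line. The difference was -4.08 in treated (adjusted p = 8.42e-08) and -4.21 in control arrays (adjusted p = 6.41e-08), at least 1.98-fold and at least 1.75-fold lower in SK-N-AS.

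KCNMA1, the pore of the large-conductance calcium-activated potassium channel, and KCNMB4, its neuronal beta4 subunit, were both lower in SK-N-AS. KCNMA1 had 6.09, 5.36 and 6.96 in treated and 5.82, 5.60 and 6.02 in control SK-N-AS arrays, against 7.84 and 7.70 in treated and 8.15 and 7.58 in control SK-N-FI arrays. KCNMB4 had 7.15, 6.93 and 6.44 in treated and 7.44, 6.72 and 7.25 in control SK-N-AS arrays, against 9.07 and 9.15 in treated and 9.12 and 9.0 in control SK-N-FI arrays. Both came from the strict-set genes higher in SK-N-FI, so their shared direction follows from that choice. KCNMA1 differed by -1.64 in treated (adjusted p = 0.00449) and -2.05 in control arrays (adjusted p = 0.000997). KCNMB4 differed by -2.27 in treated (adjusted p = 3.91e-05) and -1.92 in control arrays (adjusted p = 0.000141). SK-N-AS was at least 1.24-fold lower in treated and at least 1.20-fold lower in control arrays for KCNMA1, a bound little above 1, and at least 3.14-fold and at least 2.74-fold lower for KCNMB4.

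In the ether-a-go-go family, KCNH8 (Elk3) was lower in SK-N-AS and KCNH2 was bright in both lines. KCNH8 had 5.39, 6.10 and 6.86 in treated and 5.32, 6.93 and 6.94 in control SK-N-AS arrays, against 9.21 and 9.13 in treated and 8.86 and 9.23 in control SK-N-FI arrays. Its difference was -3.05 in treated (adjusted p = 0.000367) and -2.64 in control arrays (adjusted p = 0.000983), at least 3.27-fold and at least 2.71-fold lower in SK-N-AS. KCNH2 had 10.87, 10.49 and 10.11 in treated and 10.82, 10.24 and 10.67 in control SK-N-AS arrays, against 10.12 and 10.37 in treated and 10.53 and 9.92 in control SK-N-FI arrays. These overlapped, and the differences of 0.25 in treated (95% interval -0.40 to 0.89, adjusted p = 0.525) and 0.35 in control arrays (-0.29 to 0.99, adjusted p = 0.351) did not pass. On deposited values KCNH2 was instead lower in SK-N-AS, with differences of -1.36 in treated (adjusted p = 0.00123) and -1.26 in control arrays (adjusted p = 0.00201).

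Some further channel genes, singled out with their values seen, differed while reaching the threshold on part of the arrays of the higher line. KCNK10 (TREK-2), a relative of KCNK2, differed by -3.22 in treated and -3.12 in control arrays and was above background on 2 of 4 SK-N-FI arrays, so KCNK2 and KCNK10 differed in opposite directions. KCNJ12, an inward rectifier with a near-identical paralog whose signal its probes may share, differed by -2.15 and -2.10 (3 of 4 SK-N-FI arrays). CACNG7, a gamma subunit that partners AMPA receptors, differed by -1.93 and -1.89 (3 of 4). In SK-N-AS, the modifier subunit KCNG1 exceeded the threshold on 1 of 6 arrays and differed by 3.0 in treated and 3.11 in control arrays. All 8 of these differences passed the test, but the genes were chosen for them. KCNAB2, above background on 2 of 6 SK-N-AS and 1 of 4 SK-N-FI arrays, did not pass (limma adjusted p = 0.522 in treated and 0.117 in control arrays).

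Genes that anchor, assemble or regulate channels were listed separately, 54 of them measured. Of these, 15 were above background on every SK-N-AS array and 18 on every SK-N-FI array, and 28 on no array. Over all probe sets these shares were 30.9%, 38.1% and 50.2%. By the strict rule 4 of the 54 were higher in SK-N-AS (ANK3, GEM, ATP1B3 and NEDD4L), against 8.65% of all probe sets. In SK-N-FI 11 of the 54 were higher, against 10.3%. The ankyrin genes ANK3 and ANK2 differed in opposite directions. ANK3, the ankyrin that clusters sodium channels at the axon initial segment, averaged 12.54 in treated and 12.20 in control SK-N-AS arrays, against 6.92 in treated and 6.70 in control SK-N-FI arrays. ANK2, which anchors transporters and channels elsewhere in the membrane, averaged 9.33 and 9.29 in treated and control SK-N-AS arrays, against 13.22 and 13.22 in those of SK-N-FI. DPP6, a subunit of A-type potassium channels, differed by -4.80 in treated and -5.14 in control arrays. It was above background on no SK-N-AS array, so these differences are against that line's floor and carry no exact size. REST, which represses neuronal channel genes, differed by 1.01 in treated (adjusted p = 0.11) and 0.25 in control arrays (adjusted p = 0.707) and was above background on 3 of 6 SK-N-AS and 2 of 4 SK-N-FI arrays.

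The treatment comparison asked whether BG-P1600-TAT moved channel transcripts within each line. No member was called in either line. In SK-N-AS, limma called 0 of 123 members and 0% of all probe sets, and 1 member (0.813%) had an unadjusted p under 0.05, against 2.6% of all probe sets. In SK-N-FI, 0 members and 0% of all probe sets were called, and 4 members (3.25%) had an unadjusted p under 0.05, against 2.85%. In SK-N-AS 13 members (10.6%) had no overlap between treated and control arrays, against 7.31% of all probe sets, and in SK-N-FI 32 (26%), against 27.8%. The median member change, treated minus control, was -0.044 in SK-N-AS (range -0.74 to 0.54) and -0.014 in SK-N-FI (range -0.59 to 0.83). Over all probe sets the medians were -0.0047 and -0.0055. With 3 arrays against 3 an exact permutation test of a single gene cannot go below 0.1, so the fit across all probe sets was used.

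**Figure D5:**
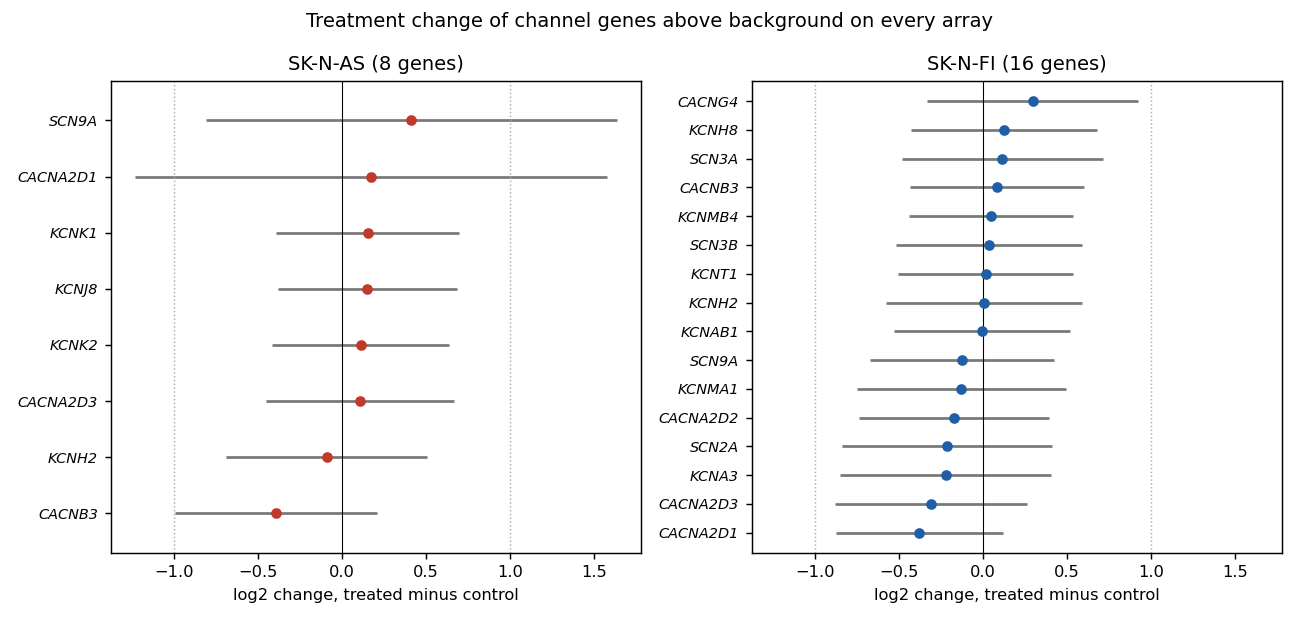
Log2 change, treated minus control, with 95% intervals for members above background on every array of a line, on the deposited scale, SK-N-AS and SK-N-FI in separate panels. Every interval includes 0.

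In SK-N-AS the 8 members above background had changes between -0.39 and 0.41, and the 95% interval lay within a 2-fold change either way for 6 of them (4.88% of all members, where 26.5% of all probe sets met both conditions). On the deposited scale CACNB3 had 7.18, 7.38 and 7.10 in treated arrays, against 7.97, 7.07 and 7.80 in control arrays, a change of -0.39 (95% interval -0.99 to 0.21, unadjusted p = 0.174). KCNJ8 had 10.66, 10.28 and 10.04 in treated arrays, against 9.95, 10.20 and 10.37 in control arrays, a change of 0.15 (-0.38 to 0.68). For KCNK1 the change was 0.15 (-0.39 to 0.70) and for KCNK2 it was 0.11 (-0.42 to 0.64). The groups overlapped for all of these, and the limma adjusted p was 1.00 for each. SCN9A and CACNA2D1 had wider intervals, with changes of 0.41 (-0.81 to 1.64) and 0.17 (-1.23 to 1.58). SCN9A had 9.39, 10.12 and 11.13 in treated arrays, against 8.68, 10.51 and 10.21 in control arrays.

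SCN3A had the smallest p in SK-N-AS, while lying in the background there. It had 4.94, 5.09 and 5.23 in treated arrays, against 4.41, 4.65 and 4.67 in control arrays, a change of 0.51 (0.05 to 0.96, unadjusted p = 0.032, limma adjusted p = 1.00). KCNG3, a modifier subunit, changed by 0.41 and KCNIP2, a calcium-binding partner of A-type channels, by -0.55, both below background on every array and with unadjusted p = 0.0578 and 0.0747. Of 9 sodium alpha genes 7 had a change above 0 in SK-N-AS and 4 in SK-N-FI, where 49.2% and 49% of all probe sets did. Of 8 ether-a-go-go genes 1 did so in SK-N-AS and 8 in SK-N-FI. None of these genes passed the test, and 3 of the sodium alpha and 5 of the ether-a-go-go genes were above background on no array. Other families were counted too and are not listed here. Over all members 42.3% had a change above 0 in SK-N-AS and 47.2% in SK-N-FI.

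In SK-N-FI the 16 members above background had changes between -0.38 and 0.29, and all 16 intervals lay within a 2-fold change either way (13% of all members, where 36.2% of all probe sets met both conditions). CACNA2D1 had 10.03 and 10.09 in treated arrays, against 10.35 and 10.53 in control arrays, a change of -0.38 (-0.88 to 0.12, unadjusted p = 0.114) without overlap. CACNG4 had 10.54 and 10.24 in treated arrays, against 9.80 and 10.39 in control arrays, a change of 0.29 (-0.34 to 0.92). The CACNG4 groups overlapped. CACNA2D3 changed by -0.31 (-0.88 to 0.26), KCNA3 by -0.22 (-0.85 to 0.40) and SCN2A by -0.21 (-0.84 to 0.41). The limma adjusted p was 1 for each.

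Of the 3 members with the smallest p in SK-N-FI, SCN11A and KCNJ2 lay in the background on every array and SCN1A on 1 of 4. SCN11A, a sodium pore of pain-sensing neurons, had 3.86 and 4.06 in treated arrays, against 2.99 and 3.26 in control arrays (change 0.83, 0.31 to 1.355, unadjusted p = 0.00682, limma adjusted p = 1), in the background throughout. SCN1A had 8.18 and 8.33 in treated arrays, against 8.92 and 8.77 in control arrays (change -0.59, -1.09 to -0.09, unadjusted p = 0.0262, limma adjusted p = 1), and its first treated array was under a threshold of 8.26. KCNJ2, an inward rectifier that sets the resting potential, changed by -0.54 (-1.06 to -0.03, unadjusted p = 0.0418, limma adjusted p = 1), also in the background. None of the 3 overlapped between treated and control arrays.

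The difference between the treatment effects, SK-N-AS minus SK-N-FI, was tested over all 10 arrays. limma called 0 members and 0% of all probe sets, and 1 member (0.813%) had an unadjusted p under 0.05, against 2.13%. That member was KCND2, an A-type potassium pore. KCNE3, an auxiliary subunit, and KCNH4, an ether-a-go-go channel, followed with differences of 0.85 (unadjusted p = 0.0593) and -0.64 (unadjusted p = 0.0847), both in the background on every array. Of the 54 related genes, 0 were called for treatment in either line.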

How the data were processed

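Biotin-labelled total RNA was measured on Affymetrix whole-transcript arrays, per the labels' protocols. The authors deposited log2 signals. RMA and version 4.0.1.36 of Transcriptome Analysis Console are named in the submitters' processing notes, with no role given for either. RMA equalises arrays, so a change shared by most genes would be removed. The table held 24351 probe sets, of which 2903 were controls and 17709 had a gene symbol. The number of arrays limits the precision.

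Arrays were grouped by their titles. Tests used lmFit and eBayes of limma 3.58.1 (R 4.3.3) over 21448 probe sets, with Benjamini-Hochberg adjustment and a threshold of 0.05, and were tested on simulated data. Treatment was fitted within each line, and all 10 arrays in 4 groups gave the interaction and, after quantile normalization, the line differences. The members, gene lists and rules were chosen with earlier results of these data known. Genes named were up to 12 per direction by the strict rule, the 2 brightest per family where they bear on a result, 5 members above background and 3 of all members by the smallest p for treatment in each line, and related genes by the strict rule. SCN7A, the chromosome neighbours, KCNK10, KCNJ12, CACNG7 and KCNG1 were singled out with their values seen. Replicate numbers recur in SK-N-FI only, where deviations of same-numbered arrays correlated at -0.1712, so the numbers were not taken as pairs. Alternatives covered scaling, eBayes settings, array weights, a filter on dim probe sets, background percentiles, a replicate block and leaving out each array, and, chosen after seeing the data, a crossed block.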

Additional observations from a re-analysis of the deposited data

Results flagged for a closer look

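KCND2 had arrays that moved in opposite directions in the lines. On the deposited scale it had 3.53, 3.71 and 3.91 in treated SK-N-AS arrays, against 3.98, 3.98 and 4.34 in control SK-N-AS arrays, a change of -0.38. It had 6.13 and 6.33 in treated SK-N-FI arrays, against 5.65 and 6.05 in control SK-N-FI arrays, a change of 0.38. Treated and control arrays did not overlap in either line. The difference of the effects was -0.76 (95% interval -1.48 to -0.04, unadjusted p = 0.0405), which did not pass the adjusted test (limma adjusted p = 1.00). On all 10 arrays the gene stayed in the background.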

How the results depend on the processing

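Of 139 alternatives to 11 counts, 129 stayed within 1.5 times. The 15 strict-set genes kept direction and call in all 225 alternatives in treated and all 225 in control arrays, and the set held 3 genes higher in SK-N-AS and 12 to 15 higher in SK-N-FI. Members called higher in SK-N-AS numbered 21 in treated and 19 in control arrays, 3 and 3 with dim probe sets left out, and 49 and 52 with median centring. Those called higher in SK-N-FI numbered 38 and 43, and 19 and 21 with dim probe sets left out, since fewer genes were then tested. Leaving out single arrays gave 14 to 25 and 16 to 23 higher in SK-N-AS, and 30 to 38 and 31 to 43 higher in SK-N-FI. With the 99th percentile of the negative controls as threshold, 0 members were above background on every SK-N-AS array and 3 on every SK-N-FI array, and with their median 61 and 72. At the 99th percentile the strict set could thus hold 0 genes higher in SK-N-AS and at most 3 higher in SK-N-FI. Deposited values turned KCNH2 to -1.355 in treated and -1.260 in control arrays and CACNA2D1 to -0.466 and -1.018, and median centring gave -0.520 and -0.417 for KCNH2 and -0.175 for CACNA2D1 in control arrays. On deposited values the lower bounds of the genes higher in SK-N-FI were between 2.33-fold (SCN2A) and 25.8-fold (SCN3B) in treated arrays, all higher than on the quantile scale. SCN9A in control arrays was also lost with a trended, robust eBayes (adjusted p = 0.0536).

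Treatment calls among members stayed at 0 under every alternative, the replicate block in SK-N-FI (0 calls, 1 at an unadjusted p under 0.05) and the crossed block (0 calls, 5) included. Single-gene changes that turned sign when an array was left out were all uncalled. Over the arrays left out in turn, the SK-N-AS changes ran between -0.145 (without control 25) and 0.825 for SCN9A, -0.015 (without treated 28) and 0.295 for KCNJ8, -0.052 (without control 26) and 0.323 for KCNK1, and -0.063 (without control 27) and 0.207 for KCNK2. Without treated 30, SCN9A was at -0.046 and KCNK2 at -0.010. The SK-N-FI changes ran between -0.001 (without control 1) and 0.589 for CACNG4, -0.542 and 0.095 (without control 1) for KCNA3, and -0.490 and 0.063 (without treated 2) for SCN2A. The causes were not tested. Low signal over background limits what can be said of the 90 dim members.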

Other observations

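Among the 90 members above background on no array, the test called 12 (13.3%) as higher in SK-N-AS, and 15 (16.7%) as higher in SK-N-FI, in both treated and control arrays. Of the 10760 probe sets above background on no array, 13.1% and 10.3% were so called. The 6 with a log2 difference of at least 2 in both were named after their values were seen. KCNJ2 averaged 6.75 in treated and 6.32 in control SK-N-AS arrays, against 3.01 in treated and 3.57 in control SK-N-FI arrays on the quantile scale. CACNB2, a calcium channel beta subunit, averaged 5.99 and 5.91 in treated and control SK-N-AS arrays, against 2.75 and 3.03 in those of SK-N-FI. KCNH7, an ether-a-go-go channel, differed by 2.09 in treated and 2.57 in control arrays. Lower in SK-N-AS were CACNG2 (stargazin, -3.01 and -2.60), KCNH5 (-2.59 and -2.46) and CACNA1B (-2.40 and -2.01), with treated arrays first. The choice of these genes required that all 12 differences pass the test (limma with Benjamini-Hochberg adjustment), and no group exceeded the negative control threshold.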
